A study of Mus musculus with 4 samples.

Results

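Microbial sensing and inflammasome genes were followed across the epithelial, myeloid and stromal cells of the mouse colon. The 10 genes were given as a list of names, which sets no threshold on a measured value but was chosen with earlier results of these data known. They were the surface receptors Tlr2, Tlr4 and Cd14, the adaptor Myd88, the cytosolic sensors Nod2, Nlrp6 and Nlrp3, and the inflammasome genes Pycard, Casp1 and Il18. All 10 of 10 were present in all 4 count matrices, among 29897 genes listed in any of them. The matrices came from single-cell RNA sequencing of mouse colon: 2 libraries from control mice and 2 from mice given carbon tetrachloride (CCl4), a hepatotoxin used to bring about liver fibrosis and cirrhosis. The CCl4 group was of specific-pathogen-free mice, 6 weeks old at the start and treated for 6 weeks. For the control group the labels give neither age, vehicle nor duration, and for both groups they give no strain, no number of animals per library and no meaning of the library number.

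Toll-like receptors recognise microbial products at the cell surface or in endosomes, and most of them signal through MyD88 to NF-kB. TLR2 recognises bacterial lipoproteins, TLR4 recognises lipopolysaccharide, and CD14 hands lipopolysaccharide to TLR4. In the cytosol NOD2 recognises muramyl dipeptide, whereas NLRP3 and NLRP6 can assemble inflammasomes, in which the adaptor ASC (encoded by Pycard) recruits caspase-1 to cleave pro-interleukin-18 and pro-interleukin-1 beta. In the colon, macrophages of the lamina propria are known for TLR and NLRP3 expression, and the epithelium for NLRP6 and a standing pool of interleukin-18.

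The sequence upstream of a gene's start is shown for the members whose levels differed most sharply between cell classes. Promoter windows of 300 bases (250 before and 50 after the annotated start) were taken from RefSeq for build GRCm38.p6, written 5′ to 3′ on the gene's own strand. Entries were found for 8 of the 10 members, Nlrp3 having 2. Tlr4 and Cd14 had none. Capitals mark matches to an NF-kB motif in Tlr2 and in the upstream window of Nlrp3, to PU.1 in the downstream window of Nlrp3, to AP-1 in Nlrp6, and to the TATA box in Il18.
Tlr2, chr3:83841559-83841858, minus strand: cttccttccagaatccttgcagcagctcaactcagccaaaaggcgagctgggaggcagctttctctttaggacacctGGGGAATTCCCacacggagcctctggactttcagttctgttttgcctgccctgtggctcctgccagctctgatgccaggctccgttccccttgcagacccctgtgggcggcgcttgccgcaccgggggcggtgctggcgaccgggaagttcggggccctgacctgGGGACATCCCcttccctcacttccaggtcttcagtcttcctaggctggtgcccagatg
Nlrp3, chr11:59541319-59541618, plus strand: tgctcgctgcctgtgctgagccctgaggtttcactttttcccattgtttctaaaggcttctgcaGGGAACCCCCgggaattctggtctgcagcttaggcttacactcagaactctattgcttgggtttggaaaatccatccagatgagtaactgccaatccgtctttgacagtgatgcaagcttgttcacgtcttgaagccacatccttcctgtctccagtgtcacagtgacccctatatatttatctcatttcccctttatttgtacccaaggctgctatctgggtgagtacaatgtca
Nlrp3, chr11:59542436-59542735, plus strand: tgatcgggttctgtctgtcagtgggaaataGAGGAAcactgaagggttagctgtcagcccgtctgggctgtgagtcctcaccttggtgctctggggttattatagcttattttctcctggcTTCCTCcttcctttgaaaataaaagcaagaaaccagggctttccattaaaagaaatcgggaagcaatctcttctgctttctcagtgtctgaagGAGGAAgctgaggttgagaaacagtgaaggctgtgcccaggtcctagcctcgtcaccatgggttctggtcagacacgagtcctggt
Nlrp6, chr7:140920652-140920951, plus strand: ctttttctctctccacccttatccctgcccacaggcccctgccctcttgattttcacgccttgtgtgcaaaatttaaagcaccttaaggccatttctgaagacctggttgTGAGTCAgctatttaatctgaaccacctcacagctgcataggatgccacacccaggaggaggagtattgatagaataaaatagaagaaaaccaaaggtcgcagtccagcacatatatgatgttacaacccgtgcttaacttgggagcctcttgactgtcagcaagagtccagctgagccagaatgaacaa
Il18, chr9:50554450-50554749, plus strand: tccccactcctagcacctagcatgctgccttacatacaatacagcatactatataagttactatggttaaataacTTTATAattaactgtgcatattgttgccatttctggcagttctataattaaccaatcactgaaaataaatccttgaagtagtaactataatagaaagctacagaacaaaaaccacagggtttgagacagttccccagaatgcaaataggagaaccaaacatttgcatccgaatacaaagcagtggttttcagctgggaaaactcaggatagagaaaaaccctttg

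Both strands of each window were searched for 6 motifs. The Tlr2 window held 3 NF-kB matches, of which 2 overlap at 173 and 172 bases before the start and 1 lies 8 bases before it. The upstream Nlrp3 window held 1 NF-kB match, 186 bases before its start, and the downstream window held none. An NF-kB match occurred in 8.46% of all 32851 promoter windows. The downstream Nlrp3 window held 3 matches to the PU.1 letters GAGGAA, which 28.3% of all windows hold, and Pycard and Casp1 held 1 each, 42 and 108 bases before their starts. The single AP-1 match (TGANTCA, in 7.81% of windows) among the members lay 140 bases before the Nlrp6 start. TATAAA (in 13.6% of windows) was found 175 bases before the Il18 start and at 2 places in Myd88, 164 and 160 bases before its start. Myd88 also held 1 ISRE match (interferon-stimulated response element, in 3.44% of windows) and 1 overlapping GAS match (TTCNNNGAA, in 8.3%), 40 and 46 bases before its start. None of the 6 motifs matched in Nod2. A match describes letters and is not a measured binding site.

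The libraries held 10021 to 13986 cell barcodes and 55834301 to 92383719 counts, and 36466 cells were kept. Clusters were named from marker genes, each name here being short for "like" that cell: colonocyte, goblet, undivided epithelial (shared epithelial markers with no further division), macrophage (with monocytes), fibroblast, smooth muscle, endothelial, lymphatic endothelial and glia. In each of these 9 classes no marker of its own list was at 0 in any library. The 6577 cells of unnamed clusters made up 10.2% and 14.1% in the controls against 21.1% and 24.6% after CCl4, and median mitochondrial shares were 4.84% and 4.55% against 7.52% and 6.84%. Barcodes are serial names and cannot show sharing, but 0 cells had the count profile of a cell of another library. The 10 shared markers of epithelium (Epcam, keratins and others) were present in every non-epithelial class, and their summed level there was higher in both CCl4 libraries than in both control libraries. These sums are given beside the results they touch.

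Levels are given as CPM, the counts of a gene scaled by the total counts summed over a class in a library and expressed per 1000000, in the order control 1, control 2, CCl4 1, CCl4 2, or as the mean ± SD of the 4 libraries. The counts were compared within a gene between classes. Because classes were clusters of the same cells, class differences are described and not tested. Of the 10 members, only Cd14 was among the variable genes used for clustering.

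Tlr2, Cd14 and Nlrp3 were each far higher in macrophages than in any other named class. Tlr2 (chr3:83836272-83841767, minus strand, GENCODE M21 on GRCm38) stood at 249, 282, 274 and 243 CPM in macrophages. The 4 libraries lay close together, and the next named class, undivided epithelium, averaged 11.4 CPM. Cd14 (chromosome 18, minus strand) stood at 559, 611, 707 and 701 CPM in macrophages, with both CCl4 libraries above both control libraries. Cd14 averaged 26.4 CPM in both undivided epithelium and goblet cells, 8.38 CPM in colonocytes and 3.86 CPM in fibroblasts. A cluster led by Wdfy4, left without a name by the naming rule and raised in 8 of 9 dendritic cell markers, held 116 CPM of Cd14.

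Nlrp3 (chr11:59541568-59566956, plus strand) stood at 228, 269.8, 338 and 328 CPM in macrophages. All other named classes averaged under 2 CPM. Goblet cells held 0 Nlrp3 counts in 3 libraries, which allows up to 0.891, 0.831 and 0.245 CPM (3 counts each, counting error alone), and 4 counts in CCl4 library 2. The Wdfy4 cluster was second, with 85.7, 81.6, 132 and 143 CPM. With every cell reduced to 1000 counts, 14.2%, 16.0%, 16.8% and 18.3% of macrophages held an Nlrp3 count, against 27.3%, 30.1%, 34.6% and 34.4% before reduction. Reduced colonocytes held one in 0 of 631, 0 of 573, 0 of 788 and 1 of 828 cells, so the first 3 libraries allow up to 0.475%, 0.524% and 0.381% of cells with a count at that depth, which does not bound the share of cells expressing the gene. Median depth was 3207 to 3653 counts in macrophages and 8578 to 11030 in colonocytes.

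**Figure D1:**
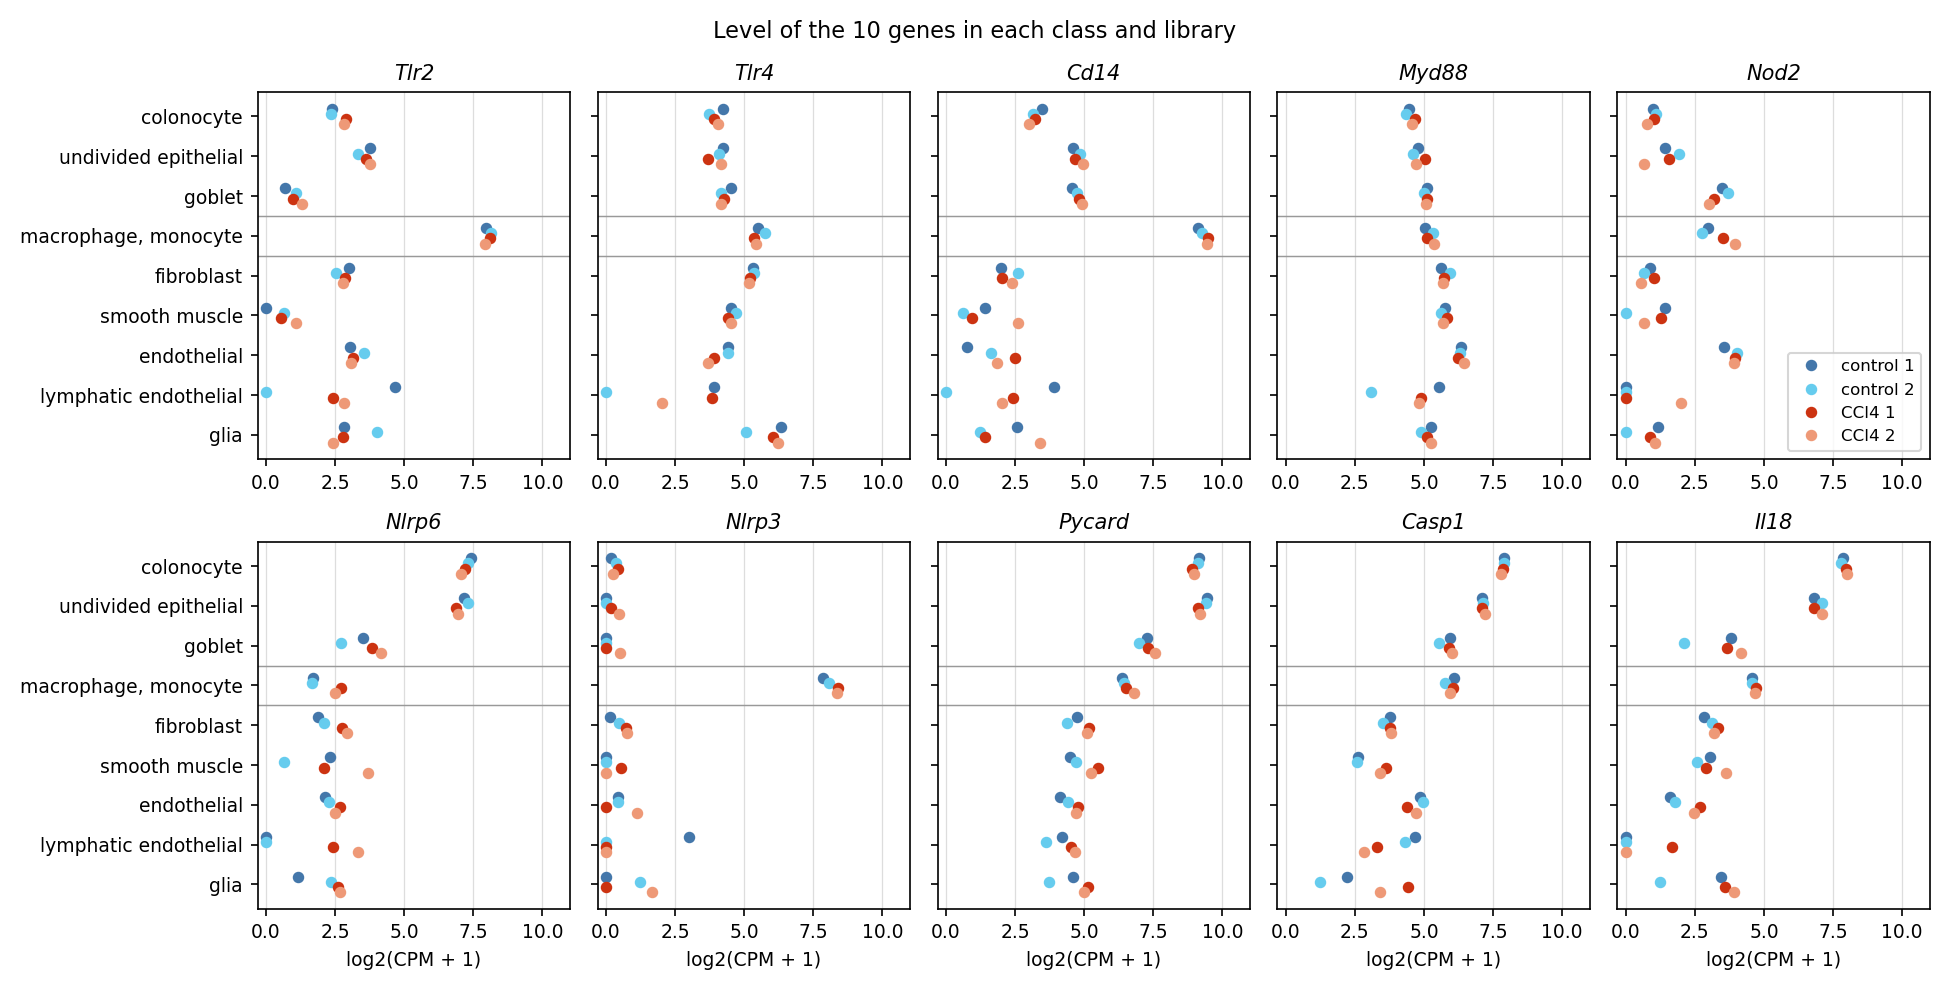
Level of each member (panels) in each named class (rows), as log2(CPM + 1) on the x axis; each point is 1 library and colours give the 4 libraries. Tlr2, Cd14 and Nlrp3 peak in macrophages, Nlrp6, Casp1 and Il18 in colonocytes, and Pycard in undivided epithelium.

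Tlr4 and Myd88 were spread over many classes. Tlr4 (chr4:66827584-66930284, plus strand) was highest among named classes in glia, at 79.6, 32.7, 65.7 and 73.4 CPM, but the glial range enclosed all 4 macrophage values (44.2, 52.6, 40.0 and 42.4 CPM). An unnamed cluster led by Cntnap2, with 8 to 546 cells a library, held 63.4, 72.6, 103 and 76.7 CPM of Tlr4. Fibroblasts followed at 37.6 ± 2.45 CPM (SD, n = 4), and the 3 epithelial classes averaged 14.9 to 18.6 CPM. Myd88 (chr9:119335934-119341411, minus strand) was highest among named classes in endothelial cells at 79.4, 77.2, 73.9 and 87.4 CPM, a range above the fibroblast mean of 52.6 CPM. An unnamed cluster led by Rgs5 held 82.5, 113, 79.8 and 83.3 CPM of Myd88, overlapping the endothelium. Macrophages averaged 35.9 CPM of Myd88 and colonocytes 21.8 CPM. The Myd88 locus overlaps Slc22a14 on the same strand and Acaa1a on the other, and the sources used here do not state how strand was treated in counting.

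Nod2, the muramyl dipeptide sensor, was low everywhere. Its highest named class was the endothelium, at 10.9, 15.3, 14.6 and 14.1 CPM, and the Wdfy4 cluster reached 35.2 CPM. Goblet cells (10.1, 11.9, 8.09 and 7.12 CPM) and macrophages (6.86, 5.73, 10.6 and 14.5 CPM) overlapped each other and the lowest endothelial library. Colonocytes, fibroblasts and the remaining named classes averaged under 2 CPM. With every cell reduced to 1000 counts, goblet cells led at 11.6 CPM, and Nod2 was the single member whose leading class moved. Nod2 lies at chr8:88647315-88688474 on the plus strand.

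Nlrp6, Pycard, Casp1 and Il18 were highest in colonocytes or undivided epithelium, and goblet cells held much less of each than the other 2 epithelial classes did. Nlrp6 (chr7:140920902-140929192, plus strand) stood at 169.7, 156, 145 and 133 CPM in colonocytes and 142, 156, 116 and 123 CPM in undivided epithelium. Goblet cells held 10.4, 5.54, 13.2 and 16.7 CPM of it. The colonocyte and undivided ranges overlapped, and the goblet range lay far below both. Reduced to 1000 counts a cell, 12.7% to 14.6% of colonocytes and 0.661% to 1.30% of goblet cells held an Nlrp6 count, against 0.143% to 0.620% of macrophages.

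Pycard (chr7:127989708-127993867, minus strand), which encodes the ASC adaptor, stood at 701, 677, 562 and 591 CPM in undivided epithelium and 575, 563, 483 and 509 CPM in colonocytes, ranges that overlap. Goblet cells held 154, 127, 157 and 191 CPM and macrophages 82.4, 85.9, 91.7 and 112 CPM. In stromal classes it averaged at most 32.0 CPM. Pycard overlaps Gm45205 on the other strand.

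Casp1 (chr9:5298517-5307265, plus strand), the inflammasome protease, stood at 239.1, 239.9, 229 and 222 CPM in colonocytes. Undivided epithelium held 137, 139, 136 and 145 CPM, all below the lowest colonocyte library. Macrophages (61.6 ± 5.97 CPM; SD, n = 4) and goblet cells (57.3 ± 7.82 CPM) overlapped. Il18 (chr9:50554827-50581840, plus strand), the cytokine that caspase-1 matures, was the most skewed of these genes within the epithelium. Colonocytes held 229, 222, 253 and 255 CPM of Il18, undivided epithelium 110.1, 138, 113 and 135 CPM, and goblet cells 13.1, 3.32, 11.8 and 17.0 CPM. Macrophages, at 22.9, 22.9, 25.2 and 24.4 CPM, lay above every goblet library. Il18 overlaps Bco2 and Tex12 on the other strand.

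Genes with the most similar class profile to a member were found over 14 classes and clusters, by Pearson correlation of mean log2(CPM + 1), as a description. Nlrp3 was nearest to the macrophage genes Ms4a4a (r = 0.989), Clec10a (0.986) and Adgre1 (0.984). Nlrp6 was nearest to Tm4sf20 (0.977) and to the transporter genes Slc5a8 and Slc1a1 (both 0.975). Il18 was nearest to Fa2h (0.938), Hsd17b13 (0.930) and Lgals3 (0.918), Casp1 to Rbm47 (0.941), Cers6 (0.921) and Prr13 (0.920), and Pycard to Slc16a5 (0.908), Reg3g (0.899) and Glrx (0.896). Cd14 was nearest to Ntpcr (0.936) and Tlr2 to Atp13a2 (0.873). Tlr4 was nearest to Htra2 (0.904), Myd88 to Txnrd3 (0.937) and Nod2 to Trim25 (0.844).

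Each member was then compared between CCl4 and control in each class, on counts summed per class and library, with edgeR's quasi-likelihood test and Benjamini-Hochberg adjustment over all genes tested in the class. A gene was called at an adjusted p under 0.05. Such p-values measure only the spread between libraries, which may be technical. For a single value, an exact two-sided permutation test of 2 libraries against 2 cannot go below 0.3333 and was not used. Of the 90 pairs of member and class, 58 passed the filter on low counts and 32 did not, including all 10 in lymphatic endothelium, where 0.078% of genes tested were called. Of the 58 tests, 2 were called, both higher with CCl4, Nlrp3 in macrophages and Pycard in fibroblasts. Over all genes in the 9 classes 1.14% of tests were called, and 15 of the member tests had an unadjusted p under 0.05. DESeq2 called 0 members, with 10 at an unadjusted p under 0.05 and 24 given no adjusted p by its own filter.

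**Figure D2:**
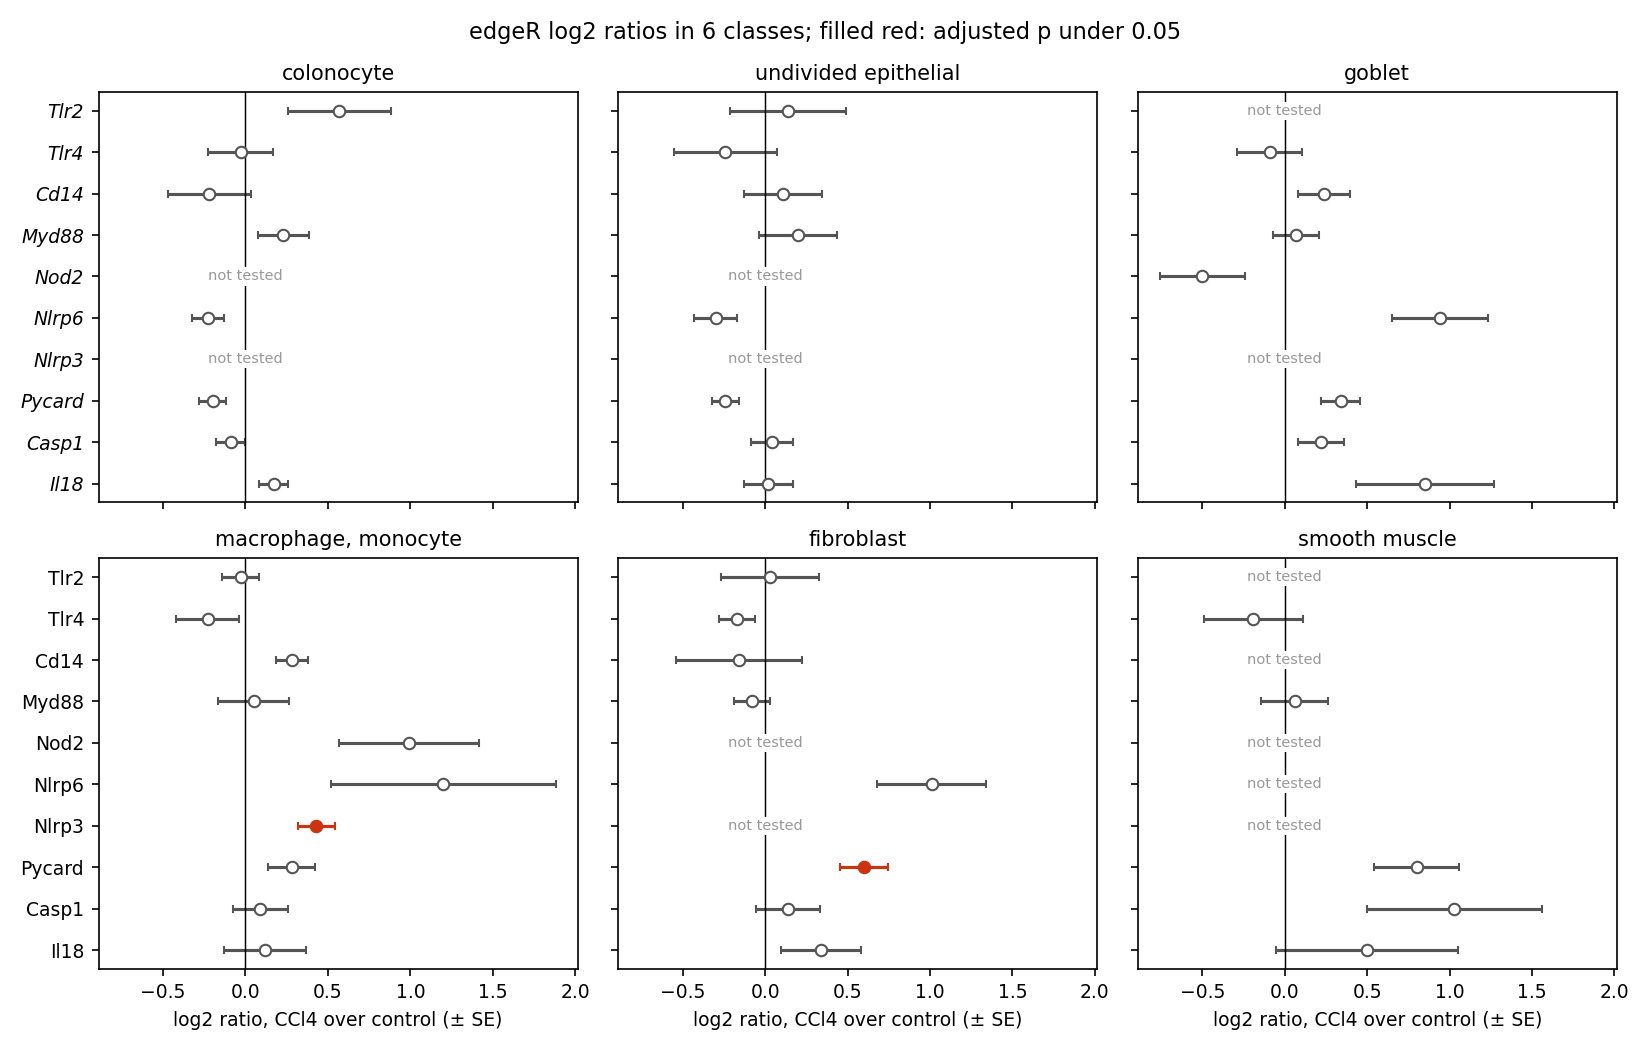
Log2 ratio of CCl4 over control for each member (rows) in 6 of the classes (panels), as the edgeR estimate with bars of 1 standard error; filled points were called. Nlrp3 in macrophages (0.43) and Pycard in fibroblasts (0.60) are the called ratios.

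In macrophages Nlrp3 rose, from 228 and 269.8 CPM in the control libraries to 338 and 328 CPM in the CCl4 libraries, with no overlap. The log2 ratio was 0.43 (SE 0.110, adjusted p = 0.0368 by edgeR). In this class 1.82% of genes tested were called, and all 10 members were tested. The call was lost with DESeq2 (0.43, adjusted p = 0.0773) and without control library 1 (0.33, adjusted p = 0.251), CCl4 library 1 (0.39, 0.296) or CCl4 library 2 (0.46, 0.1301), and without control library 2 the ratio was 0.53 (0.00981). Clustering finely, the class split mainly into a cluster led by C1qa (2095 cells) and one led by Cxcl2 (629 cells), whose leading genes include Nlrp3, Cd14 and Il1b. Nlrp3 stood at 143, 130.4, 156 and 182 CPM in the former and 551, 687, 814 and 708 CPM in the latter. The Cxcl2-led cluster made up 18.6% and 22.8% of the class in control libraries and 26.0% and 24.96% in CCl4 libraries. Fitted alone, Nlrp3 had a log2 ratio of 0.31 in the C1qa-led cluster (adjusted p = 0.379) and 0.30 in the Cxcl2-led cluster (adjusted p = 0.779).

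The Wdfy4 cluster gave Nlrp3 a log2 ratio of 0.79 (SE 0.251), with both CCl4 libraries above both control libraries, and an edgeR adjusted p of 0.396. There 0.174% of genes tested were called. Whether the macrophage ratio of Nlrp3 differs from that of other myeloid cells was not tested.

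Other macrophage members were not called. Cd14 had a log2 ratio of 0.28 (SE 0.0961, adjusted p = 0.190 by edgeR), its CCl4 values of 707 and 701 CPM above its control values of 559 and 611 CPM. Within the fine clusters Cd14 was 268, 295, 303 and 302 CPM (C1qa-led) and 1667, 1555, 1765 and 1742 CPM (Cxcl2-led). Tlr2 had a log2 ratio of -0.03 and Tlr4 of -0.23. Nod2 stood at 6.86 and 5.73 CPM against 10.6 and 14.5 CPM, a log2 ratio of 0.99 (SE 0.425, adjusted p = 0.354 by edgeR). Pycard (0.28), Casp1 (0.09), Il18 (0.12) and Myd88 (0.05) had small positive ratios.

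Markers of other cells moved within the macrophage class. Shared epithelial markers summed to 459 and 414 CPM in control and 829.6 and 897 CPM in CCl4 libraries, with 10 of 10 higher in both. Summed neutrophil markers stood at 239 and 252 CPM against 543 and 373 CPM (7 of 8 higher, none at 0 in all libraries). Summed markers of resident macrophages stood at 3330 and 3126 CPM against 2452 and 2365 CPM (7 of 8 lower). Markers of the monocyte and Il1b macrophage subset summed to 10390 and 10040 against 12400 and 11770 CPM, with 3 of 8 higher and 4 lower. Dendritic markers summed to 2990 and 2740 against 2393 and 2228 CPM (3 of 9 higher, 1 lower). T cell markers stood at 120 and 158 against 181 and 214 CPM (3 of 10 higher, 1 lower). For B cell markers the sums were 180 and 178 against 156 and 130 CPM (1 of 9 higher, 2 lower). Among macrophages with no count of the shared epithelial markers, Nlrp3 had a log2 ratio of 0.14 (SE 0.217, adjusted p = 0.960 by edgeR). That subset held 48.9% and 48.3% of control macrophages but 17.1% and 20.6% of CCl4 macrophages. The sum of all epithelial classes held at most 0.318 CPM of Nlrp3 in any library, and goblet cells up to 0.413 CPM. The part of the epithelial, neutrophil, subset and other markers in the Nlrp3 ratio was not tested.

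In the epithelial classes no member was called, where 1.23% of genes tested in colonocytes, 0.409% in goblet cells and 1.02% in undivided epithelium were. In each class 8 members were tested. By edgeR 6 of the 24 tests had an unadjusted p under 0.05. DESeq2 called 0, with 5 at an unadjusted p under 0.05 and 14 given no adjusted p by its own filter. In colonocytes Nlrp6 had a log2 ratio of -0.23 (SE 0.097, adjusted p = 0.337) and Pycard of -0.20 (SE 0.083, adjusted p = 0.323), both lower in both CCl4 libraries. In undivided epithelium the same genes had log2 ratios of -0.30 (adjusted p = 0.354) and -0.24 (adjusted p = 0.220). In goblet cells Nlrp6 stood at 10.4 and 5.54 CPM in control and 13.2 and 16.7 CPM in CCl4 libraries, a log2 ratio of 0.94 (SE 0.290, adjusted p = 0.219). Goblet Pycard, at 154 and 127 against 157 and 191 CPM, had a ratio of 0.34 (adjusted p = 0.271), and goblet Il18 a ratio of 0.85 (adjusted p = 0.439). Control and CCl4 goblet values of Il18 overlapped, and its ratio was 2.13 (adjusted p = 0.0427) without control library 1 and 0.15 (adjusted p = 0.835) without control library 2. Colonocyte Casp1 (-0.09) and Il18 (0.17) had ratios near 0. All of these adjusted p-values are from edgeR.

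The difference between classes in the CCl4 ratio was tested for 5 pairs of classes, 45 member tests in all, with the library as a block. Of these 1 was called: the Pycard ratio was higher in goblet cells than in undivided epithelium by 0.60 on the log2 scale (SE 0.121, adjusted p = 0.0351 by edgeR), where 0.493% of genes tested were called. By edgeR 5 of the 45 had an unadjusted p under 0.05. The goblet ratio of Nlrp6 was above that of colonocytes by 1.15 (SE 0.257, adjusted p = 0.0582) and above that of undivided epithelium by 1.25 (SE 0.280, adjusted p = 0.0624), neither called. The difference from colonocytes was called without control library 1 (1.62, adjusted p = 0.00496) or CCl4 library 1 (1.43, adjusted p = 0.000105), and was 0.86 and 0.89 without either of the others. That from undivided epithelium was called without control library 1 (1.80, adjusted p = 7.6e-06) or CCl4 library 1 (1.36, adjusted p = 0.0306), and was 0.75 without control library 2 and 1.13 without CCl4 library 2. Goblet Pycard was above colonocyte Pycard by 0.52 (adjusted p = 0.0701), called in each leave-out except that of CCl4 library 2 (0.38, adjusted p = 0.665). The shares of genes called were 0.741% for goblet cells against colonocytes and 0.0149% for colonocytes against undivided epithelium, a pair in which no member was called. The Pycard call was lost without the library block (adjusted p = 0.191), without CCl4 library 1 (0.68, adjusted p = 0.105) and without CCl4 library 2 (0.50, adjusted p = 0.980). Summed colonocyte markers in goblet cells were 1985, 1100, 1285 and 1511 CPM, highest and lowest in the control libraries, and in undivided epithelium 3426, 3662, 2181 and 2764 CPM. Their part in the differences was not tested.

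Over the whole epithelium, all epithelial classes summed, 2 members were called lower with CCl4. Nlrp6 fell from 122 and 109.7 CPM to 83.6 and 85.2 CPM, a log2 ratio of -0.48 (SE 0.0894, adjusted p = 0.0123 by edgeR). Casp1 fell from 174 and 168 CPM to 137 and 144 CPM, a log2 ratio of -0.31 (SE 0.0791, adjusted p = 0.0439 by edgeR). The Casp1 call was lost without control library 1 (-0.24, adjusted p = 0.122), CCl4 library 1 (-0.29, 0.286) or CCl4 library 2 (-0.32, 0.144), while Nlrp6 stayed called in each of the 4 leave-outs. In this sum 6.08% of genes tested were called, and 9 members were tested. Pycard (475 and 439.9 against 365 and 399 CPM; -0.29, adjusted p = 0.0661) and Il18 (151 and 144 against 121 and 137 CPM; -0.22, adjusted p = 0.156) were not called, though neither overlapped. Without control library 2 both were called, Pycard at -0.39 (adjusted p = 0.00219) and Il18 at -0.30 (adjusted p = 0.0332), and DESeq2 called Pycard (-0.30, adjusted p = 0.0126). Cd14 (0.33) and Tlr2 (0.37) had uncalled positive ratios.

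The makeup of the epithelial sum moved with these values. Colonocytes gave 57.6% and 57.2% of epithelial counts in control libraries and 36.2% and 40.4% in CCl4 libraries, while goblet cells gave 27.5% and 29.5% against 40.8% and 38.5%. Undivided epithelium gave 14.3% and 11.8% against 22.3% and 20.2%. Goblet cells are the class with the least Nlrp6 and the least Casp1 of the 3. Within colonocytes, undivided epithelium and goblet cells the Nlrp6 ratios were -0.23, -0.30 and 0.94. The Casp1 ratios were -0.09, 0.04 and 0.22 in the same order. The part of the makeup in the summed ratios was not tested.

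**Figure D3:**
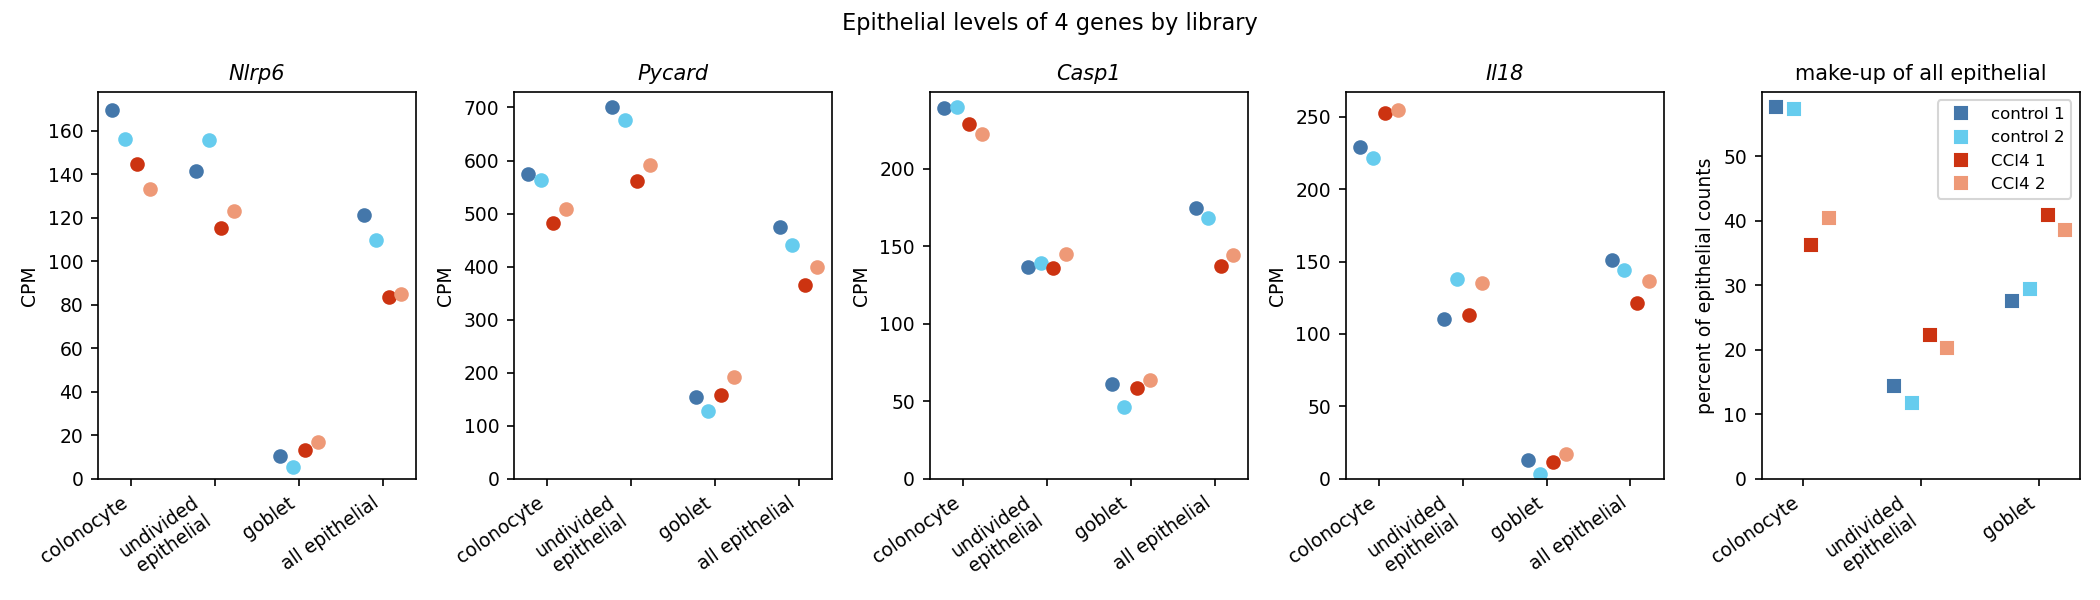
Epithelial levels of Nlrp6, Pycard, Casp1 and Il18 in CPM by library (points), for colonocytes, undivided epithelium, goblet cells and the sum of all epithelial classes, with the percent of epithelial counts from each class in the last panel. In the sum Nlrp6 lies at 122 and 109.7 in control and 83.6 and 85.2 in CCl4 libraries, and goblet cells lie lowest for each gene.

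Outside the epithelium Pycard rose in fibroblasts, from 25.9 and 19.6 CPM to 35.4 and 33.9 CPM. The log2 ratio was 0.60 (SE 0.148, adjusted p = 0.0482 by edgeR), in a class with 2.06% of genes called and 8 members tested. The sum of all stromal classes gave Pycard 23.7 and 19.8 CPM against 34.1 and 31.9 CPM and the same ratio, 0.60 (SE 0.122, adjusted p = 0.0412), with 1.66% of genes called, and 0.52 without CCl4 library 1 (adjusted p = 0.136). Without control library 2 the fibroblast ratio was 0.39 (adjusted p = 0.228), without CCl4 library 1 it was 0.53 (adjusted p = 0.125), and DESeq2 gave 0.59 (adjusted p = 0.189). Smooth muscle (0.80, adjusted p = 0.157), endothelium (0.52, adjusted p = 0.475) and glia (0.89, adjusted p = 0.597) had positive, uncalled Pycard ratios by edgeR, where 1.61%, 0.485% and 0.698% of genes were called. The fibroblast and smooth muscle ratios of Pycard were not called different, as no member was in that pair (1.43% of genes called), nor between macrophages and fibroblasts (0.391%).

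Shared epithelial markers moved with stromal Pycard. They summed to 328 and 333 CPM in control fibroblasts and 741 and 824 CPM in CCl4 fibroblasts, with 10 of 10 higher in both. In smooth muscle they were 394 and 439 against 830.3 and 902 CPM, in endothelium 319 and 344 against 663 and 663 CPM, and in glia 323 and 403 against 939.5 and 781 CPM. For every 1000 counts of these markers, fibroblasts held 78.8 and 58.9 Pycard counts in control and 47.8 and 41.1 in CCl4 libraries, against 20.3 to 21.5 in the whole epithelium. Among fibroblasts without a count of the markers (46.0% and 43.5% of control and 14.3% and 15.5% of CCl4 fibroblasts) the Pycard ratio was 0.43 (SE 0.298, adjusted p = 0.746 by edgeR). Macrophage markers summed to 123 and 113 against 132 and 142 CPM in fibroblasts, with 4 of 10 higher in both CCl4 libraries. The part of either marker set in the Pycard ratios was not tested.

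Nlrp6 ratios were positive in each class outside the epithelium that was tested (macrophages, fibroblasts and endothelium), from few counts. Fibroblasts held 26, 34, 60 and 57 Nlrp6 counts, or 2.71, 3.32, 5.70 and 6.63 CPM, a log2 ratio of 1.01 (SE 0.332, adjusted p = 0.166 by edgeR). Macrophages held 6, 6, 17 and 12 counts, with a ratio of 1.20 (adjusted p = 0.566). The stromal sum stood at 2.83 and 3.07 against 5.27 and 6.74 CPM (1.01, adjusted p = 0.0957). No group overlapped in these 3, and none was called. The stromal sum was called with the library number as a term (1.01, adjusted p = 0.0166) and with no filter on low counts (adjusted p = 0.0167). For every 1000 shared epithelial marker counts, fibroblasts held 8.26 and 9.96 Nlrp6 counts in control and 7.69 and 8.05 in CCl4 libraries, and the stromal sum 8.44, 8.79, 7.02 and 8.49. By that measure neither CCl4 fibroblast library lay above a control library, nor did either in endothelium (10.7 and 11.1 against 8.21 and 6.96). The marker sum itself rose with CCl4 in both classes, so any gene that rose less than the sum falls by this measure. Macrophages held 4.98 and 5.19 against 6.78 and 5.11, T cells 6.01 and 6.99 against 6.26 and 9.85, and plasma cells 3.81 and 5.23 against 5.76 and 12.4. Colonocytes held 4.80 to 5.96, undivided epithelium 7.95 to 9.33, goblet cells 0.4973 to 1.497 and the whole epithelium 4.544 to 5.493. Fibroblasts and the stromal sum lay above the whole epithelium in every library, and their ranges overlapped that of undivided epithelium. The part of the shared epithelial markers in the Nlrp6 ratios was not tested.

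**Figure D4:**
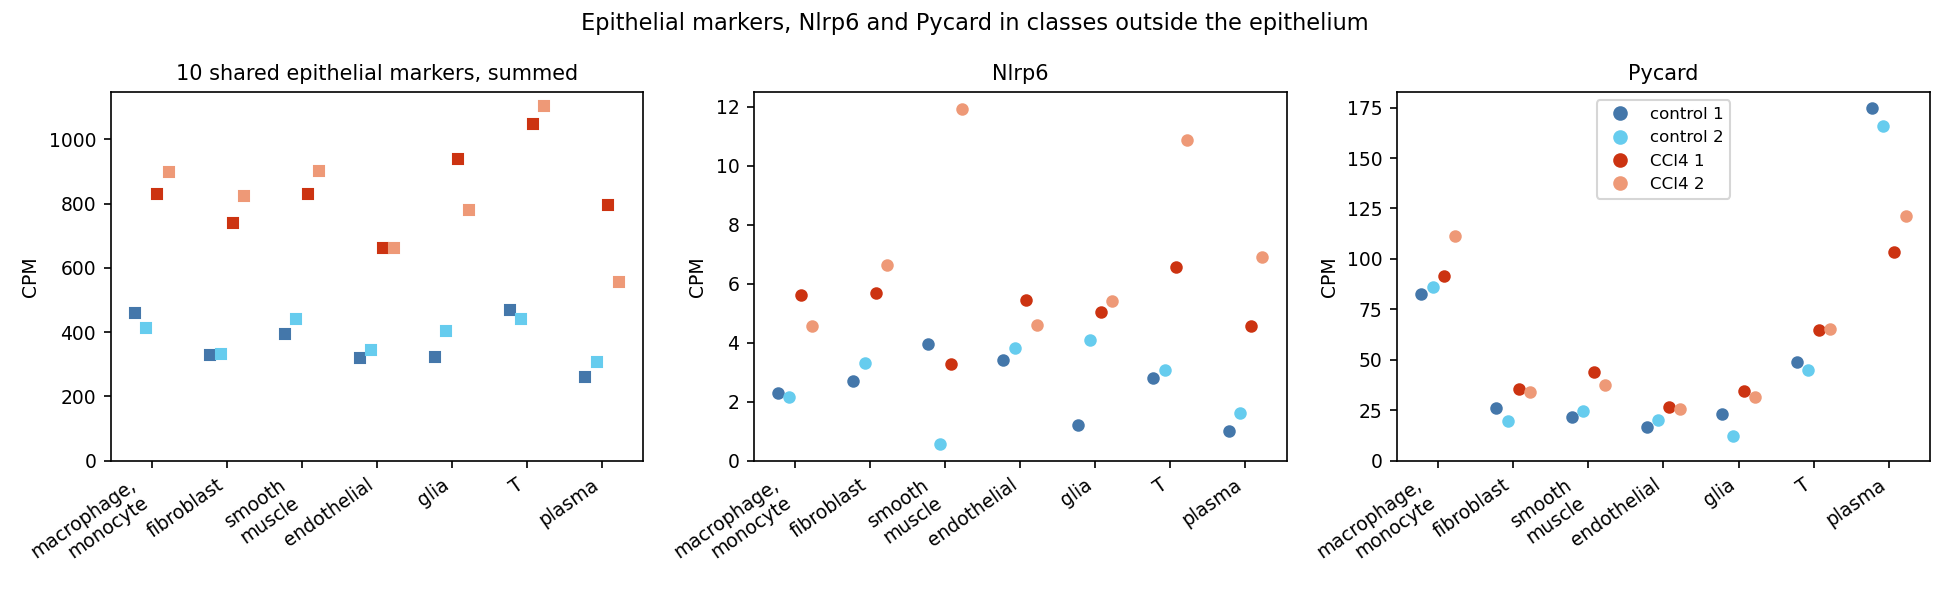
Outside the epithelium: summed CPM of the shared epithelial markers, CPM of Nlrp6 and CPM of Pycard, by class (x axis) and library (points). In fibroblasts the markers rise from 328 and 333 to 741 and 824, and Pycard from 25.9 and 19.6 to 35.4 and 33.9.

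No stromal ratio of Myd88, Tlr4, Tlr2 or Casp1 was called by edgeR or DESeq2. In fibroblasts the log2 ratios were -0.08 for Myd88, -0.17 for Tlr4, 0.03 for Tlr2 and 0.14 for Casp1. Endothelial Myd88, at its highest level of any named class, had a ratio of 0.06 and endothelial Nod2 of 0.16. Tlr4 had an uncalled ratio of -0.60 in endothelium (adjusted p = 0.483 by edgeR) and 0.30 in glia, its highest named class. Endothelial Il18 (1.18, adjusted p = 0.584) and smooth muscle Casp1 (1.03, adjusted p = 0.439) were not called, nor was endothelial Casp1 (-0.36, adjusted p = 0.642).

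Plasma cells, outside the epithelial, myeloid and stromal classes, held 175 and 166 CPM of Pycard in control libraries and 104 and 121 CPM in CCl4 libraries. The log2 ratio was -0.72 (SE 0.128, adjusted p = 0.0396 by edgeR), where 1.25% of genes tested were called, and the call was lost without control library 1 (-0.61, adjusted p = 0.229) or CCl4 library 1 (-0.62, adjusted p = 0.103). It was opposite in sign to the fibroblast ratio of 0.60, and the difference was not tested. Shared epithelial markers in plasma cells summed to 261 and 306 against 795 and 557 CPM, so they moved the other way. Nlrp6 in plasma cells rested on 8, 14, 20 and 23 counts, with an uncalled ratio of 2.01 (adjusted p = 0.125). T cells gave Nlrp6 a ratio of 1.52 (adjusted p = 0.363) and Pycard 0.47 (adjusted p = 0.341), with 0.624% of genes called and shared epithelial markers at 469 and 440.4 against 1048 and 1105 CPM. The part of these markers in the ratios was not tested.

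An unnamed cluster led by Gm26917 (4831 cells, median mitochondrial share 16.3%) held 104 CPM of Nlrp6, 451 CPM of Pycard and 57.8 CPM of Il18. In it 0 members were called by edgeR, where 0.453% of genes were.

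The wider pathway was taken from 6 lists of 75 genes, all of them found in the files. Over the 9 classes 399 tests were made, with 5 called higher and 2 lower, 1.75% of the tests against 1.14% over all genes. The lists were chosen with earlier results of these data known, so the larger share is not independent evidence. Median ratios of the listed genes tested lay between -0.10 (colonocytes) and 0.05 (macrophages), apart from 0.21 in lymphatic endothelium, where 20 genes were tested. Medians over all genes tested lay within 0.01 of 0. The members' own medians were -0.06 over 8 tested in colonocytes, 0.23 over 8 in goblet cells, 0.03 over 8 in undivided epithelium, 0.20 over 10 in macrophages, 0.08 over 8 in fibroblasts, 0.11 over 8 in endothelium, 0.50 over 5 in smooth muscle and 0.30 over 3 in glia.

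In macrophages 3 of 61 listed genes tested were called, where 1.82% of all genes were. Il1b, the other main caspase-1 substrate, rose from 816 and 608 CPM to 1063 and 969 CPM (log2 ratio 0.52, adjusted p = 0.00871 by edgeR). The Il1b ratio was 0.30 (adjusted p = 0.157) without control library 2 and 0.43 (adjusted p = 0.0786) without CCl4 library 1. Il1rn, the interleukin-1 receptor antagonist, rose from 55.3 and 92.3 CPM to 174 and 104 CPM (0.93, adjusted p = 0.00596), and its ratio was 0.48 (adjusted p = 0.326) without CCl4 library 1. Il18bp, the secreted inhibitor of interleukin-18, fell from 27.1 and 22.5 CPM to 8.94 and 9.16 CPM, a log2 ratio of -1.44 (adjusted p = 0.00828). DESeq2 called none of the 3 (adjusted p = 0.752 for Il1b, 0.993 for Il1rn and 0.0845 for Il18bp). Over 15 alternatives the Il1b call was lost in 7 (ratios 0.30 to 0.77) and the Il1rn call in 7 (0.48 to 1.32). Over 14 alternatives the Il18bp call was lost in 2 (-1.6 to -0.46). In macrophages with no epithelial marker count the Il18bp ratio was -0.46 (adjusted p = 0.930 by edgeR). Il18bp stood at 33.2, 28.2, 10.5 and 11.1 CPM in the C1qa-led cluster and at 3.67, 5.71, 4.79 and 4.13 CPM in the Cxcl2-led cluster. Il1b stood at 533, 476, 608 and 777 CPM in the former and at 1895, 1004, 2254 and 1470 CPM in the latter, where control and CCl4 libraries overlapped. Il18bp overlaps Numa1 on the other strand and Il1b overlaps the antisense gene Il1bos.

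**Figure D5:**
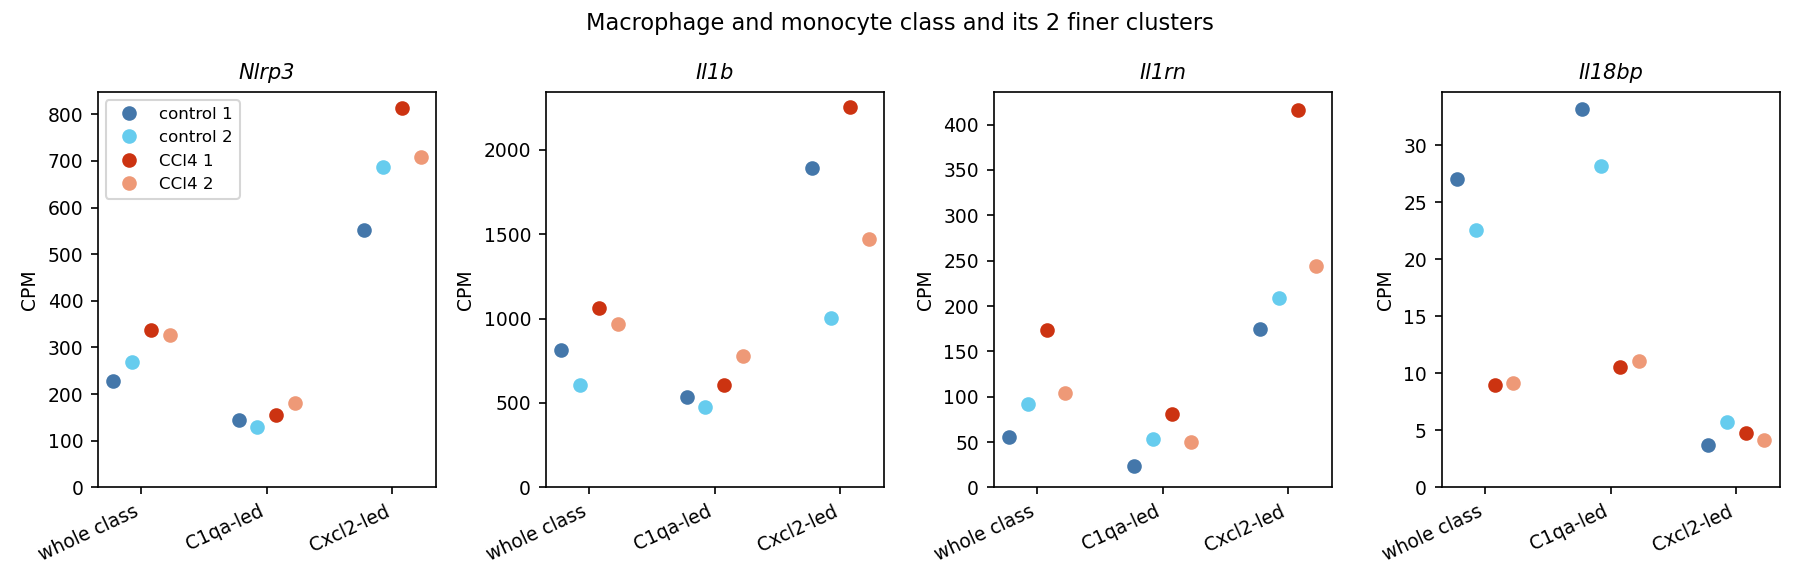
CPM by library (points) of Nlrp3, Il1b, Il1rn and Il18bp in the macrophage class and its fine clusters led by C1qa and Cxcl2. Nlrp3 over the whole class lies at 228 and 269.8 in control and 338 and 328 in CCl4 libraries, and in every library it is higher in the Cxcl2-led than in the C1qa-led cluster.

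Elsewhere, Nfkbia, the NF-kB inhibitor and target, fell in colonocytes from 1268 and 1206 CPM to 912 and 943 CPM (-0.42, adjusted p = 0.0159 by edgeR), a call lost without control library 1 (adjusted p = 0.0662) or CCl4 library 2 (adjusted p = 0.1095). Colonocyte Cxcl2, a chemokine gene that macrophages hold at far higher levels (8845 to 10890 CPM), rose from 4.54 and 3.70 CPM to 22.6 and 11.6 CPM (2.06, adjusted p = 0.00142). The Cxcl2 ratio lay between 1.27 and 2.48 in 11 alternatives, and the call was lost in 1, with no filter on low counts. Macrophage markers in colonocytes summed to 63.8 and 55.3 against 56.7 and 54.7 CPM. The part of macrophage counts in the colonocyte Cxcl2 ratio was not tested. Fibroblast Il1r1, the interleukin-1 receptor, rose from 53.2 and 55.3 CPM to 74.0 and 69.9 CPM (0.40, adjusted p = 0.0452), but the ratio was -0.21 (adjusted p = 0.842) in fibroblasts without an epithelial marker count, and the call was lost in each of the 4 leave-outs. Txnip, encoding a thioredoxin-binding protein that can bind NLRP3, rose in glia from 1022 and 937 CPM to 1342 and 1279 CPM (0.43, adjusted p = 0.0331), a call that without either CCl4 library or control library 2 was lost. Over the whole epithelium 0 of 58 listed genes tested were called higher and 5 lower. Of all genes tested 6.08% were called, 2.65% higher and 3.44% lower. The 5 were Nfkbia (-0.35), Nfkbiz (-0.44), the bacterial protein sensor gene Naip1 (-0.49), Nlrp9b (-0.76) and Gsdmd (-0.44), which encodes the pore-forming gasdermin D. Of these only Nfkbia was called within an epithelial class, the colonocytes. The colonocyte share of the sum fell and the goblet share rose with CCl4, and the part of this in the 5 ratios was not tested. Without CCl4 library 1 or CCl4 library 2 both Nfkbia and Nlrp9b missed the threshold in the epithelial sum, as did Nfkbiz and Naip1 without CCl4 library 1 and Gsdmd without control library 1 or CCl4 library 2. Over all stromal classes Cd36 (0.43) and Il1r1 (0.42) were called higher, the latter not without control library 1 or CCl4 library 1.

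Of 3 lists no gene was called in a class. The most abundant genes were Cd36 and Unc93b1 among other Toll-like receptors and their coreceptors, Xiap and Birc3 in the NOD pathway, and Aim2 and Nlrc4 among other inflammasome sensors. Cd36 peaked in endothelium (542 to 609.8 CPM) and Unc93b1, which carries Toll-like receptors to endosomes, in macrophages (402 to 469 CPM). Unc93b1 ratios lay between -0.20 and -0.02 in its 9 classes. Nlrc4 peaked in goblet cells, at 78.7 to 89.7 CPM, unlike Nlrp6, and Aim2 in macrophages, at 80.7 to 96.8 CPM.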

How the data were processed

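Single-cell suspensions of mouse colon were made with a tissue dissociation kit and run in droplets with mRNA-capture beads, per the labels' protocols. The authors deposited whole-number gene counts per cell barcode, 1 matrix per library, with PISA v0.12b named in the headers of the files (per the file headers), on GRCm38 per the submitters' processing notes. The aligner and the treatment of strand are not given in the sources used here.

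Barcodes below 200 genes or above 25% mitochondrial counts were dropped, and the 6% with the highest doublet scores in each library were removed (Scrublet in scanpy 1.11.5, so the share removed was preset). Cells of all libraries were clustered together (2000 variable genes, 30 principal components, 15 neighbours, Leiden resolution 1.0) into 21 clusters. A cluster was named from the marker list of highest mean log2 ratio against the other cells where at least 3 of its markers were raised, that mean led the next list's by at least 0.5, and no other list had more markers among the cluster's 10 leading genes. For epithelial lists 3 raised shared epithelial markers also sufficed, and the lead was asked only over non-epithelial lists. A single epithelial type was then named only where its own list led the other epithelial types by at least 0.5. The cluster called undivided epithelial scored highest for crypt stem and proliferating markers (mean log2 ratio 0.61), with 2 of them and 5 shared epithelial markers raised. Other clusters stayed unnamed, so classes are rebuilt here and not the authors'. Counts were summed per class and library for those 9 epithelial, myeloid and stromal classes that had 50 or more cells in each of the libraries, and tested in edgeR 4.0.16 (R 4.3.3; TMM, filterByExpr, quasi-likelihood, treatment as the term, two-sided). DESeq2 1.42.0 was an alternative. Enteroendocrine cells and interstitial cells of Cajal were too few to be fitted alone.

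Intervals and floors cover counting error only. A count of 0 allows 3 counts. On simulated counts with 100 genes changed 2-fold, the edgeR test recovered 74 in colonocytes (12803 genes run), 52 in macrophages (11230 genes) and 67 in fibroblasts (15545 genes). It recovered 65 in goblet cells, 60 in undivided epithelium, 48 in endothelium, 41 in smooth muscle, 31 in glia and 22 in lymphatic endothelium. Of 100 genes changed 1.5-fold it recovered 43 in colonocytes, 18 in macrophages, 39 in fibroblasts, 27 in goblet cells and 19 in undivided epithelium. Many changes of that size would thus go uncalled. The 10 members, the 6 other lists and the markers were chosen with earlier results of these data known. Named beyond the members were listed genes that passed the threshold in a class or compartment, for a list with none in a class its 2 genes of highest mean CPM over the 9 classes, and up to 3 genes nearest to each member among genes of at least 20 CPM in a class. Alternatives changed the scaling, the low-count filter, the cell filters, the doublets, the clustering (also without the listed genes), the library number as a term, and left out each library in turn.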

Additional observations from a re-analysis of the deposited data

Results flagged for a closer look

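The CCl4 ratio of Pycard in goblet cells exceeded that in undivided epithelium by 0.60 on the log2 scale (SE 0.121, edgeR interaction, adjusted p = 0.0351). It was picked out because the same contrast gave different ratios in 2 classes by a test of the difference itself. The ratio was 0.34 in goblet cells and -0.24 in undivided epithelium, neither called alone, and goblet cells of CCl4 library 2 (191 CPM) were farthest from the control goblet values of 154 and 127 CPM.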

How the results depend on the processing

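Members called per class numbered 2, and 0 with DESeq2, 1 with RLE size factors and 1 with doublets kept (endothelial Pycard). With no filter on low counts 1 each was called in goblet cells (Nlrp6), macrophages and fibroblasts. With stricter cell filters (500 genes, 10% mitochondrial counts) 0 were called. No cluster was then named colonocyte, and the undivided class had Car1 and Cyp2c55 among its leading genes. Median mitochondrial shares in the main classes were 15.8% to 16.7% in colonocytes and 5.98% to 7.87% in goblet cells. Clustering without the listed genes gave 0, and leave-outs are given by gene below. Among non-epithelial cells without epithelial marker counts 0 of 2 were called. That subset was chosen after seeing the data, as were the fine clusters, the plasma settings and all compartment settings but the leave-outs and the block. Macrophage Nlrp3 (0.43) missed the threshold with DESeq2 (0.43), doublets kept (0.39), stricter cells (0.33), clustering without the listed genes (0.44, adjusted p = 0.0604), in cells without epithelial marker counts (0.14), in the C1qa-led (0.31) and Cxcl2-led (0.30) clusters, and in 3 of 4 leave-outs (0.33 to 0.53). Fibroblast Pycard (0.60) missed it with DESeq2 (0.59), RLE (0.59, adjusted p = 0.0510), doublets kept (0.57), stricter cells (0.48), clustering without the listed genes (0.60, adjusted p = 0.0538), in cells without epithelial marker counts (0.43), and in 2 of 4 leave-outs (0.39 to 0.84). The adjusted p-values ranged from 0.00719 to 0.960 for Nlrp3 and from 0.00257 to 0.746 for Pycard. Compartment calls numbered 3, and 0 with stricter cells and 1 to 5 in leave-outs. Epithelial Nlrp6 missed with stricter cells (-0.54) and kept its call in leave-outs (-0.60 to -0.36). Epithelial Casp1 missed with RLE (-0.32), no filter (-0.28), stricter cells (-0.28) and 3 leave-outs (-0.38 to -0.24). Stromal Pycard missed with stricter cells (0.46) and 1 leave-out (0.44 to 0.76). Plasma Pycard missed in 2 leave-outs (-0.82 to -0.61). Calls of a difference between classes numbered 1, and 0 without the library block and 0 to 6 in leave-outs. Goblet minus undivided Pycard was 0.60 without the library block and 0.45 to 0.68 in leave-outs, missing in 2. Fibroblast Il1r1 reversed to -0.21 in cells without epithelial marker counts. The cause was not tested.

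For 71 uncalled member ratios, 854 pairs of ratio and setting had an adjusted p, of which 8 became called and 55 changed sign. Within classes these calls were goblet Nlrp6 without a low-count filter (0.96), goblet Il18 without control library 1 (2.13) and endothelial Pycard with doublets kept (1.04). In the epithelial sum they were Pycard with DESeq2 (-0.30) and without control library 2 (-0.39), and Il18 without control library 2 (-0.30). In the stromal sum Nlrp6 was called with the block and without a filter (1.01 in both). The leading class of all 10 members was the same in clustering without the listed genes. The labels do not say what the library numbers share, and with 2 pairs the data cannot settle it. Deviations from the group mean, in log2 CPM over genes, were compared between control library 1 and CCl4 library 1. Their correlation lay between 0.00324 and 0.182 in the 9 classes, and was 0.223 in the epithelial and 0.232 in the stromal sum. With the replicate block, member calls per class were again 2, macrophage Nlrp3 0.43 and fibroblast Pycard 0.60, compartment calls 4 (stromal Nlrp6 added), and calls over all fibroblast genes 663 against 320.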
